A study of Homo sapiens with 8 samples.

Results

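The fibroblast growth factor (FGF) receptors and ligands of human embryonic stem cells (hESCs) were followed through treatment with an antibody against the secreted glycoprotein MFGE-8. The set holds 9 genes named by symbol, namely the receptors FGFR1, FGFR2, FGFR3 and FGFR4, the receptor-like FGFRL1 and the ligands FGF2, FGF8, FGF17 and FGF19, of 62086 gene identifiers in the count table. The members were selected on their anti-M8nAb and IgG values at 12 h and 24 h, which earlier results of these data had shown. Those values are therefore given as a description with no p-value, and nothing is read from counts of members that passed an adjusted p. All 9 were present in the table and 8 of them passed the filter on low counts, beside 20165 genes tested in all, and FGF17 did not pass.

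The cells were the hESC line BG01, a single established line, grown in mTeSR1 medium on Matrigel. Cultures received anti-M8nAb, an antibody (clone MFG-06) that neutralizes MFGE-8, or normal mouse IgG as its isotype control, either one at 5 µg/mL and for 12 h or 24 h. Each of these 4 groups had 2 RNA-seq libraries from total RNA, 8 in all. The labels call the libraries of a group biological replicates but do not say that they came from separate cultures, so every p-value measures the spread between these libraries.

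FGF ligands bind receptor tyrosine kinases at the cell surface together with heparan sulfate chains, and the bound receptors pass the signal through adaptor proteins and RAS to the kinase ERK. In hESCs this pathway is known for holding cells in the undifferentiated state, and FGF2 is a standard ingredient of their culture media. FGFR1 to FGFR4 carry the kinase domain, whereas FGFRL1 binds ligands and heparin but lacks that domain. FGF8 and FGF17 belong to a subfamily active in early patterning of the embryo, and FGF19 is an endocrine ligand that acts best through FGFR4 with a klotho co-receptor.

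Between 21010400 and 21792716 reads were assigned to named genes in a library. The squared difference between replicates of a group averaged 2.28 to 4.5 times that of counting alone. The 12 hESC markers listed for the check, POU5F1, SOX2 and NANOG among them, summed to 8260 to 8330 CPM (counts scaled to a library of fixed size) with anti-M8nAb against 7580 to 7740 CPM with IgG at 12 h, and to 7330 to 7510 CPM against 6940 to 6960 CPM at 24 h. Lists of other cell types were also higher with the antibody at both times, namely neuroectoderm (6.03 to 6.63 CPM against 2.17 to 3.31 CPM at 12 h, 4.72 to 4.87 CPM against 2.86 to 3.06 CPM at 24 h), endoderm (5.79 to 8.54 CPM against 3.82 to 4.83 CPM, 7.89 to 7.93 CPM against 3.92 to 5.55 CPM) and fibroblasts (539 to 572 CPM against 477 to 479 CPM, 675 to 702 CPM against 545 to 560 CPM). The trophoblast list was lower at both times (16.0 to 16.3 CPM against 18.5 to 20.2 CPM, at most 19.5 CPM against 20.1 to 20.9 CPM), and the mesoderm list overlapped at 12 h (0.932 to 2.46 CPM against 0.922 to 1.61 CPM) and was lower at 24 h (2.34 to 2.68 CPM against 3.26 to 4.62 CPM). At 12 counts or fewer in every library were HES5 and NEUROG2 of neuroectoderm, GATA4, GATA6 and SOX17 of endoderm, DCN, LUM and FAP of fibroblasts, CDX2, CGA and TFAP2A of trophoblast and TBXT, EOMES, HAND1 and MESP1 of mesoderm. In these lists 3 of 5, 2 of 5, 4 of 7, 2 of 5 and 4 of 6 genes passed the filter. These are sums, and single genes went both ways (edgeR, adjusted p under 0.05). Of the hESC markers 7 were higher and 1 lower at 12 h, beside 32.2% of all genes called. At 24 h POU5F1, DPPA4 and LIN28A were higher and SOX2, NANOG, ZFP42 and EPCAM lower, beside 42.5% of all genes called. GATA3 of trophoblast was higher at both times and KRT7 lower at 12 h. CXCR4 of endoderm was higher at both times and FOXA2 lower at 24 h. The part of these lists in the members' values was not tested, and in bulk RNA fewer cells that use a gene and less of its RNA per cell cannot be told apart.

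The clearest difference among the members was in FGFRL1, which was 10.0-fold lower with anti-M8nAb than with IgG at 12 h and 6.57-fold lower at 24 h. FGFR1, FGFR2, FGF2 and FGF19 were 1.22-fold to 1.36-fold higher with the antibody at 12 h. At 24 h FGF2 was 1.10-fold higher with the antibody, and FGFR2 and FGFR4 were each 1.09-fold lower. At that time FGFR1 and FGF19 had fitted values within 1.06-fold of IgG with no settled direction. In the 12 h comparison 4 members passed an adjusted p of 0.05 (edgeR, Benjamini-Hochberg over all genes tested) on the higher side, a side that holds 15.8% of all genes tested, and 1 passed on the lower side, which holds 16.4% of all genes. In the 24 h comparison 1 member passed on the higher side (21.2% of all genes) and 1 on the lower side (21.3% of all genes). As these contrasts were known when the members were chosen, nothing is read from those counts. The 2 libraries of each group did not overlap for 6 of the 8 members at 12 h, beside 66.2% of all genes, and for 4 of the 8 at 24 h, beside 69.0% of all genes. The median log2 fold change of the 8 members was 0.33 at 12 h and −0.10 at 24 h, and that of all genes tested was 0.00 at both times. Of all genes called, 49.2% were higher with the antibody at 12 h and 49.8% at 24 h, and the share was 35.0% and 35.1% when FPKM values were tested on the log2(FPKM + 1) scale.

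**Figure D1:**
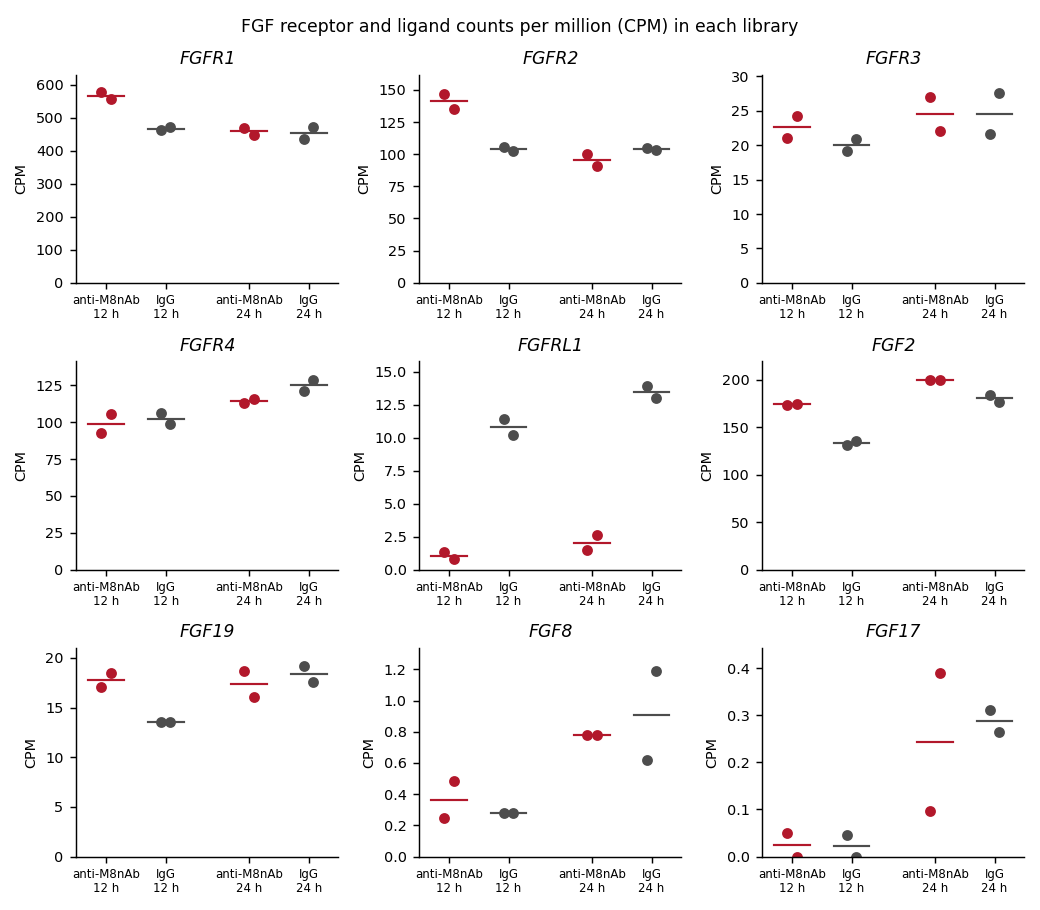
CPM of the 9 genes in each library, with a linear vertical axis from 0 in each panel. Points are the 2 libraries of a group and the horizontal line is their mean, red for anti-M8nAb and grey for IgG. The 4 anti-M8nAb libraries of FGFRL1 lie between 0.772 and 2.63 CPM and the 4 IgG libraries between 10.2 and 13.9 CPM.

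FGFR1 (ENSG00000077782.23, chr8:38400215-38468834, minus strand, GRCh38) encodes a kinase receptor for FGF2. It had 577 and 557 CPM in the anti-M8nAb libraries of 12 h, against 462 and 470 CPM in the IgG libraries of 12 h. Both antibody libraries of 12 h lay above every other library of the series. At 24 h it had 469 and 449 CPM with anti-M8nAb, against 435 and 471 CPM with IgG, and the groups overlapped. The log2 fold change was 0.28 ± 0.05 (SE, n = 2 libraries per group) at 12 h and 0.02 ± 0.05 at 24 h. The 24 h value changed sign without replicate 1 of IgG (−0.05) or of anti-M8nAb (−0.01) at 24 h and on the log2(FPKM + 1) scale (−0.07), so no direction is given for it.

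FGFR2 (ENSG00000066468.24, chr10:121478332-121598458, minus strand) encodes a receptor whose splice forms differ in the ligands they bind, and it had the largest fitted difference of the 4 kinase receptors at 12 h. It had 147 and 136 CPM with anti-M8nAb at 12 h, against 106 and 103 CPM with IgG at 12 h. The 24 h libraries had 100 and 90.6 CPM with anti-M8nAb, against 105 and 103 CPM with IgG. The antibody libraries thus lay above the IgG libraries at 12 h and below them at 24 h, without overlap at either time. The log2 fold change was 0.44 ± 0.06 (SE) at 12 h and −0.12 ± 0.06 at 24 h. The 24 h value ranged from −0.20 without replicate 1 of anti-M8nAb at 24 h to −0.05 without replicate 2 of that group.

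FGFR3 (ENSG00000068078.20, chr4:1793293-1808872, plus strand) and FGFR4 (ENSG00000160867.15, chr5:177086905-177098144, plus strand) differed less between the treatments at 12 h than FGFR1 and FGFR2 did. FGFR3 had 21.1 and 24.2 CPM with anti-M8nAb at 12 h, against 19.2 and 21.0 CPM with IgG, so that the groups did not overlap but almost touched. At 24 h it had 27.1 and 22.1 CPM with anti-M8nAb, against 21.6 and 27.6 CPM with IgG, with the values of one group spread across those of the other. Its log2 fold change was 0.17 ± 0.12 (SE) at 12 h and −0.00 ± 0.12 at 24 h, the 24 h value turning to 0.19 without replicate 2 of IgG and to 0.14 without replicate 2 of anti-M8nAb at 24 h. FGFR4, the receptor that FGF19 uses in liver, had 92.4 and 105 CPM with anti-M8nAb at 12 h, against 106 and 98.5 CPM with IgG, which overlapped. At 24 h it had 113 and 116 CPM with anti-M8nAb, against 121 and 129 CPM with IgG, both antibody libraries being the lower. The log2 fold change of FGFR4 was −0.05 ± 0.07 at 12 h and −0.13 ± 0.07 at 24 h, and the 12 h value changed sign, to 0.01 and 0.04, without replicate 1 of IgG or of anti-M8nAb at 12 h.

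FGFRL1 (ENSG00000127418.15, chr4:1009936-1026898, plus strand) encodes a membrane protein with FGF-binding immunoglobulin domains and a short tail in place of the kinase. It was read by 28 and 16 counts in the anti-M8nAb libraries of 12 h, against 247 and 222 counts in the IgG libraries of 12 h. In the 24 h libraries it was read by 30 and 54 counts with anti-M8nAb, against 314 and 295 counts with IgG. Scaled to CPM, it stood at 1.37 and 0.772 with anti-M8nAb at 12 h, against 11.4 and 10.2 with IgG, and at 1.46 and 2.63 with anti-M8nAb at 24 h, against 13.9 and 13.0 with IgG. The highest of the 4 antibody libraries was thus far below the lowest of the 4 IgG libraries. The log2 fold change was −3.33 ± 0.24 (SE) at 12 h and −2.72 ± 0.21 at 24 h. Leaving out 1 library in turn gave −3.79 to −2.96 at 12 h and −3.20 to −2.35 at 24 h. On the log2(FPKM + 1) scale, where the added 1 exceeds the antibody values themselves, it came to −1.51 and −1.54.

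The promoters of FGFRL1, FGF2 and FGFR2 are shown because, at 12 h, FGFRL1 was the member furthest below IgG, FGFR2 was the kinase receptor furthest above it, and FGF2 is the ligand for which a window was found. The windows run from 250 bases before to 50 bases after the RefSeq start on GRCh38.p14 and are printed 5′ to 3′ on the gene's own strand, with every GC box (GGGCGG or its reverse complement CCGCCC, overlapping matches included) in capitals. The RefSeq starts lie within the gene spans given here, and the windows are at chr4:1012214-1012513 (plus strand), chr4:122826581-122826880 (plus strand) and chr10:121598395-121598694 (minus strand). The FGFRL1 window lies wholly inside the gene span, which begins at 1009936, and the sequence before that earlier start was not examined.
FGFRL1: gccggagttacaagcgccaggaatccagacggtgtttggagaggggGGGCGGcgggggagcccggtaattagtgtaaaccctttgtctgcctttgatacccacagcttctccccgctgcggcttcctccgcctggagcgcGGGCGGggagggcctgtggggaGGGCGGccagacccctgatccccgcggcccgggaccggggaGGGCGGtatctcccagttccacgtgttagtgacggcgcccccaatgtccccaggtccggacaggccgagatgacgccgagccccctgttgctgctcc
FGF2: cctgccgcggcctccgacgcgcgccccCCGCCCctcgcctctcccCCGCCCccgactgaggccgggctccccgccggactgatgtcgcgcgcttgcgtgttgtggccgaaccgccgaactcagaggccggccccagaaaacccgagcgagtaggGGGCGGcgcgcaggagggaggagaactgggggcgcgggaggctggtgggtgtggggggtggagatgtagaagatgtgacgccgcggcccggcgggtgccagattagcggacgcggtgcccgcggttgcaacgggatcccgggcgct
FGFR2: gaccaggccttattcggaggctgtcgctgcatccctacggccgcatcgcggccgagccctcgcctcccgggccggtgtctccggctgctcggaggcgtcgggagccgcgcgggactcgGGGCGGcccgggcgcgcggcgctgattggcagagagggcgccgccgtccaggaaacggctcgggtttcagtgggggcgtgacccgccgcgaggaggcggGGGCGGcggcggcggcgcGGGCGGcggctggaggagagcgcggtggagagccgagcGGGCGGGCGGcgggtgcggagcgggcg

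RefSeq windows were found for 5 of the 9 members, and FGFR1, FGF8, FGF17 and FGF19 were not matched. The window of FGFRL1 holds 4 GC boxes, that of FGF2 holds 3 and that of FGFR2 holds 5, and those of FGFR3 and the first of FGFR4 hold 8 and 7, while 45.0% of 35116 promoter windows of the same length hold at least 1. Their GC content was 68.3% for FGFRL1, 74.7% for FGF2, 79.3% for FGFR2, 86.3% for FGFR3 and 78.7% for FGFR4, against a median of 58.7% over all windows. FGFR2 has 4 further windows at other starts, with 47.3% to 50.7% GC and 1 GC box among them, and FGFR4 has a second one with 57.3% GC and no GC box, so the values depend on the start taken. On both strands, TGANTCA (AP-1), TGACGTCA (CRE), CCGGAAG (ETS) and ATTTGCAT (octamer) were matched in no window of these 5 genes, and over all windows they were matched in 7.71%, 1.85%, 10.3% and 1.77%. GGAATG (TEAD) was matched once in the first FGFR4 window and in 2 further FGFR2 windows upstream of other transcripts, beside 4928 of the 35116 windows. A match is a description of the letters alone.

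The genes around FGFRL1 were looked at after its values had been seen. Of 12 genes tested whose starts lay within 250 kb of its own, 2 passed the test at 12 h (RNF212 and CTBP1) and 6 at 24 h, all of them lower with the antibody, beside 16.4% of all genes lower at 12 h and 21.3% at 24 h. Their log2 fold changes lay between −1.27 and 0.13 at 12 h and between −0.70 and 0.33 at 24 h. The median over the 12 neighbours was −0.15 at 12 h and −0.18 at 24 h. FGFRL1, at −3.33 and −2.72, was lower than each of them at both times. FGFR3 lies on the same chromosome arm with its start 783.4 kb away.

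**Figure D2:**
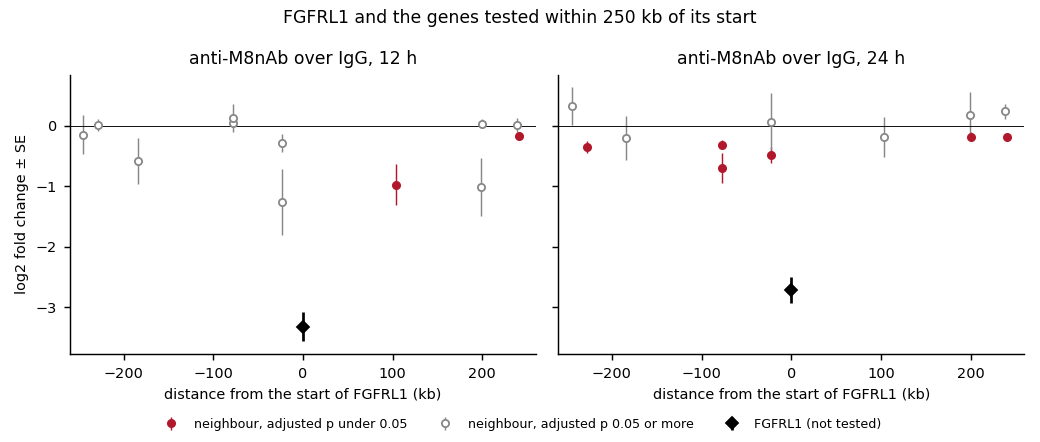
Log2 fold change of anti-M8nAb over IgG with its SE (vertical) against distance from the start of FGFRL1 in kb (horizontal), at 12 h (left) and 24 h (right). FGFRL1 is the black diamond at −3.33 and −2.72, the 12 neighbours are circles, and the filled ones passed an adjusted p of 0.05. None of the neighbours lies below −1.27.

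Among the ligands, FGF2 (ENSG00000138685.18, chr4:122826682-122898236, plus strand), the ligand added to hESC media, was also transcribed by the cells. It had 173 and 174 CPM with anti-M8nAb at 12 h, against 131 and 136 CPM with IgG. At 24 h it had 199 and 199 CPM with anti-M8nAb, against 184 and 177 CPM with IgG. The antibody libraries were the higher at both times and did not overlap with IgG. The log2 fold change was 0.38 ± 0.06 (SE) at 12 h and 0.14 ± 0.05 at 24 h. The 24 h value shrank to 0.054 on the log2(FPKM + 1) scale and to 0.055 on the log2(FPKM + 0.1) scale. Of the exon sequence of FGF2, 11.82% overlaps NUDT6 on the other strand, and the strand setting of the counting is not given in the sources used here, so reads over that stretch cannot be told apart. NUDT6 had log2 fold changes of 0.44 ± 0.10 at 12 h (edgeR, adjusted p = 0.000611) and 0.15 ± 0.10 at 24 h (edgeR, adjusted p = 0.221), with between 21.5 and 33.9 CPM per library.

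FGF19 (ENSG00000162344.4, chr11:69698238-69704022, minus strand) had 17.0 and 18.5 CPM with anti-M8nAb at 12 h, against 13.5 and 13.6 CPM with IgG. The 24 h values were 18.6 and 16.1 CPM with anti-M8nAb, against 19.1 and 17.6 CPM with IgG. The antibody libraries were the higher at 12 h and overlapped with IgG at 24 h, and the IgG libraries of 12 h were the lowest of the series. The log2 fold change was 0.39 ± 0.12 (SE) at 12 h and −0.08 ± 0.12 at 24 h, and the 24 h value was 0.02 without replicate 2 of anti-M8nAb at 24 h. The genes around FGF19 were looked at after its values had been seen. Of 3 tested within 250 kb, 1 was lower with the antibody at 12 h and 3 at 24 h. Over all genes 16.4% were lower at 12 h and 21.3% at 24 h. CCND1, a cyclin that drives entry into the cell cycle, starts 62.9 kb away. It fell by 0.34 at 12 h (edgeR, adjusted p = 8.72e-05) and by 0.69 at 24 h (edgeR, adjusted p = 1.49e-11) on the log2 scale. LTO1, 28.6 kb away, gave −0.13 at 12 h (edgeR, adjusted p = 0.317) and −0.71 at 24 h (edgeR, adjusted p = 1.36e-08). The other is FGF4, which is given below.

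FGF8 (ENSG00000107831.14, chr10:101770109-101780371, minus strand) and FGF17 (ENSG00000158815.11, chr8:22042398-22048809, plus strand) were read by few fragments. FGF8 was read by 5 to 27 counts per library, at 0.245 and 0.482 CPM with anti-M8nAb at 12 h, against 0.277 and 0.276 CPM with IgG. At 24 h it had 0.779 and 0.780 CPM with anti-M8nAb, against 0.622 and 1.19 CPM with IgG. The treatments overlapped at both times, and a log2 fold change of 0.39 ± 0.68 (SE) at 12 h and −0.22 ± 0.51 at 24 h could not show a difference at this depth. Its sign changed without replicate 2 of anti-M8nAb at 12 h (−0.16) and without replicate 2 of IgG at 24 h (0.32). FGF17 was read by 1 and 0 counts with anti-M8nAb at 12 h, against 1 and 0 counts with IgG, and by 2 and 8 counts with anti-M8nAb at 24 h, against 7 and 6 counts with IgG. A count of 0 allows up to 3 counts, or up to 0.145 CPM in replicate 2 of anti-M8nAb at 12 h and 0.138 CPM in replicate 2 of IgG at 12 h. FGF17 is therefore not compared between treatments.

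**Figure D3:**
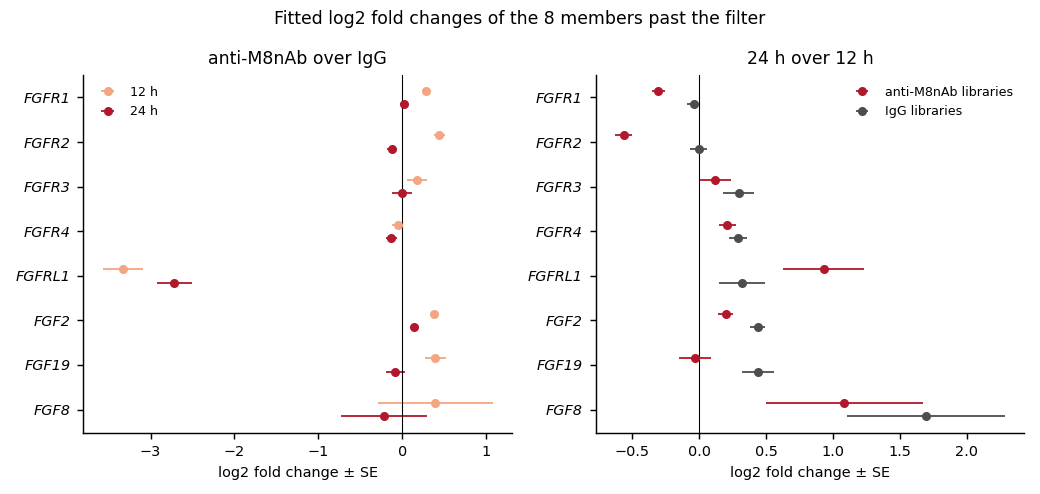
Fitted log2 fold changes with their SE of the 8 members past the filter. The left panel sets anti-M8nAb over IgG at 12 h (light) and 24 h (dark), where FGFRL1 stands at −3.33 and −2.72 and every other member lies between −0.22 and 0.44. The right panel sets 24 h over 12 h in anti-M8nAb libraries (red) and IgG libraries (grey), where FGFR2 stands at −0.57 with anti-M8nAb and −0.00 with IgG.

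Levels were compared between genes in FPKM, fragments scaled to library size and to gene length. The length is that of a gene's annotated exons summed, overlaps counted once. It was 17201 bases for FGFR1 and 18813 for FGFR2, against 4810 for FGFR4 and 4848 for FGFR3, and the order of genes depends on it. Before division by length, mean CPM over the 8 libraries was 486 for FGFR1, 110 for FGFR4, 111 for FGFR2 and 23.0 for FGFR3. FGFR1 had the highest mean FPKM of the receptors in each group, with 32.4 and 31.6 FPKM with anti-M8nAb at 12 h, 27.2 and 27.6 FPKM with IgG at 12 h, 26.7 and 25.5 FPKM with anti-M8nAb at 24 h and 26.2 and 28.5 FPKM with IgG at 24 h. FGF2 and FGFR4 were of the same order, from 19.5 to 28.7 FPKM and from 18.5 to 27.9 FPKM over the 8 libraries. FGF19 followed at 7.51 to 10.9 FPKM, then FGFR2 at 4.71 to 7.54 FPKM and FGFR3 at 4.01 to 5.93 FPKM. FGF8 reached at most 0.859 FPKM and FGF17 at most 0.116 FPKM. In the IgG libraries of 24 h the order of FGF2, FGFR1 and FGFR4 was within the spread of the replicates, as was that of FGFR2 and FGFR3 in both groups of 24 h. FGFRL1 ranked above FGF8 in both IgG groups, at 2.37 to 3.33 FPKM, and in both antibody groups, at 0.173 to 0.592 FPKM, the pair overlapped.

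FGFR1 to FGFR4 together came to between 58.1 and 68.1 FPKM in a library. Shares of that sum depend on the unequal exon lengths given above, so they are read between libraries and not between receptors. FGFR1 made up 51.7% and 48.7% of that sum with anti-M8nAb at 12 h, against 45.9% and 47.5% with IgG. Its share was 44.2% and 43.8% with anti-M8nAb at 24 h, against 41.8% and 41.9% with IgG. The share of FGFR1 was thus the higher one in the antibody libraries at both times, without overlap. At 24 h this was not a higher FGFR1, which had 26.7 and 25.5 FPKM with anti-M8nAb against 26.2 and 28.5 FPKM with IgG. At that time FGFR4 was lower, with 22.9 and 23.5 FPKM with anti-M8nAb against 26.1 and 27.9 FPKM with IgG. FGFR4 made up 29.6% and 32.9% with anti-M8nAb at 12 h, against 37.8% and 35.5% with IgG, and 38.0% and 40.4% with anti-M8nAb at 24 h, against 41.6% and 41.0% with IgG. FGFR2 held between 8.09% and 12.0% and FGFR3 between 6.69% and 9.06%. For each 100 FPKM of the 4 kinase receptors there were 0.487 and 0.267 FPKM of FGFRL1 with anti-M8nAb at 12 h, against 4.47 and 4.08 with IgG, and 0.546 and 1.02 with anti-M8nAb at 24 h, against 5.30 and 4.58 with IgG.

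**Figure D4:**
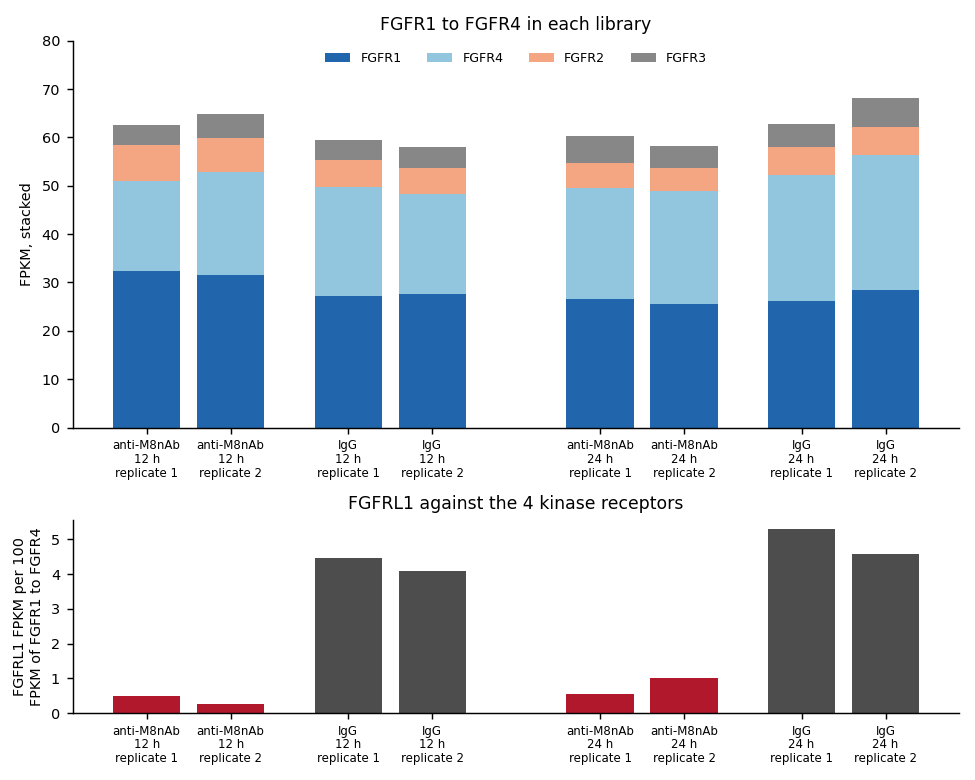
Upper panel, FPKM of FGFR1, FGFR4, FGFR2 and FGFR3 stacked in each of the 8 libraries, summing to between 58.1 and 68.1. Lower panel, FPKM of FGFRL1 per 100 FPKM of those 4 receptors, which lies between 0.267 and 1.02 in anti-M8nAb libraries (red) and between 4.08 and 5.30 in IgG libraries (grey).

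Time in culture was set out within the IgG libraries, which also enter the antibody comparisons. As the IgG values were among those on which the members were chosen, these too are given as a description with no p-value. Of the 8 members, 4 passed an adjusted p of 0.05 on the higher side of IgG at 24 h over IgG at 12 h, beside 7.01% of all genes on that side and 6.64% on the lower side, and nothing is read from that count. Both IgG libraries of 24 h lay above both of 12 h for FGF2, FGF19, FGF8, FGFR3, FGFR4 and FGFRL1, and overlapped with them for FGFR1 and FGFR2. The share of all genes without overlap was not taken for this comparison, so nothing is read from how many members did not overlap. On the log2 scale IgG at 24 h over 12 h was 0.44 ± 0.06 (SE) for FGF2, 0.44 ± 0.12 for FGF19 and 1.69 ± 0.59 for FGF8, whose value came to 1.16 without replicate 2 of IgG at 24 h. Among the receptors it was 0.29 ± 0.06 for FGFR4, 0.29 ± 0.12 for FGFR3, −0.04 ± 0.05 for FGFR1 and −0.00 ± 0.06 for FGFR2, and it was 0.32 ± 0.17 for FGFRL1. FGFR3 came to 0.47 without replicate 1 of IgG at 24 h. The median of the 8 members was 0.31 and that of all genes was 0.00.

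In the anti-M8nAb libraries, 24 h over 12 h gave log2 fold changes of −0.57 ± 0.06 (SE) for FGFR2, −0.31 ± 0.05 for FGFR1, −0.03 ± 0.12 for FGF19, 0.20 ± 0.05 for FGF2, 0.21 ± 0.07 for FGFR4 and 0.93 ± 0.30 for FGFRL1. Setting the response at 24 h minus that at 12 h, FGFR2 gave −0.56 ± 0.09, FGFR1 gave −0.26 ± 0.07, FGF2 gave −0.24 ± 0.08, FGF19 gave −0.48 ± 0.17 and FGFRL1 gave 0.61 ± 0.35 on the log2 scale. Of the 8 members, 3 passed an adjusted p of 0.05 for this difference, beside 12.3% of all genes. As the responses themselves were known, nothing is read from that count.

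By a rule set with earlier results known, the genes most like a member over the 8 libraries were found by the root mean square difference of log2 CPM after each gene's own mean was taken off. For FGFRL1 they were IKZF1 (0.447), a lymphoid transcription factor, C3orf70 (0.565) and TNFAIP8L1 (0.566). TNFAIP8L1 had 1.47 and 1.64 CPM with anti-M8nAb at 12 h, against 7.33 and 7.54 CPM with IgG, and 2.34 and 1.66 CPM with anti-M8nAb at 24 h, against 11.3 and 10.3 CPM with IgG. The distances were smaller for FGFR2, with ZNF93 (0.0494), TRIM11 (0.0506) and HIVEP1 (0.0563). ZNF93 had 66.2 and 65.0 CPM with anti-M8nAb at 12 h, against 51.0 and 49.0 CPM with IgG, and 45.2 and 45.3 CPM with anti-M8nAb at 24 h, against 50.7 and 49.6 CPM with IgG. For FGF8 they were RUBCNL (0.19), CPZ (0.224) and STARD8 (0.247), with FGF8 itself at 1.19 CPM or less in every library.

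The other genes of the pathway were taken from 4 lists, also chosen with earlier results known, and are given with adjusted p-values over all genes tested. Of 18 other genes of the FGF family, which include the intracellular FGF11 to FGF14 beside secreted ligands, 9 passed the filter, and at 12 h edgeR and DESeq2 each called 0 of them, with 1 at an unadjusted p under 0.05. At 24 h FGF1, FGF12 and FGF13 rose and FGF4 fell, FGF12 (0.44 ± 0.12, edgeR, adjusted p = 0.00183) and FGF4 (−1.83 ± 0.62, edgeR, adjusted p = 0.0141, 4 to 20 counts) being named after their values were seen, beside 21.2% of all genes higher and 21.3% lower. FGF12 and FGF13 are intracellular and not ligands of the receptors, and the call of FGF4 was lost under DESeq2 and without replicate 1 of anti-M8nAb at 24 h. FGF13 had 66.9 and 75.8 CPM with anti-M8nAb at 24 h, against 54.0 and 54.3 CPM with IgG, a log2 fold change of 0.40 ± 0.08 (edgeR, adjusted p = 4.29e-05). FGF1, which binds all the kinase receptors, had 1.95 and 1.22 CPM with anti-M8nAb at 24 h, against 0.311 and 0.132 CPM with IgG, a log2 fold change of 2.81 ± 0.56 (edgeR, adjusted p = 5.91e-05). The FGF1 values rested on 40 and 25 counts with anti-M8nAb, against 7 and 3 counts with IgG, and the log2 fold change was 3.51 without replicate 1 of IgG and 2.33 without replicate 2 of IgG at 24 h. The median of the 9 genes was −0.07 at 12 h and 0.25 at 24 h.

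Among 32 co-receptors and ligand-handling genes, 28 passed the filter, of which 7 rose and 4 fell at 12 h, and 10 rose and 7 fell at 24 h. These are 39.3% and 60.7% of the list, beside 32.2% and 42.5% of all genes called at 12 h and 24 h. On the log2(FPKM + 1) scale, which turns this balance, 4 rose and 5 fell at 12 h, and 6 rose and 7 fell at 24 h. The klotho co-receptors KL (0 to 1 counts per library, below the filter) and KLB (1 to 13 counts) were hardly read. SULF1, a sulfatase that trims heparan sulfate outside the cell, had 34.4 and 30.4 CPM with anti-M8nAb at 12 h, against 11.8 and 11.7 CPM with IgG, and rose by 1.47 ± 0.11 at 12 h (edgeR, adjusted p = 1.5e-14) and by 1.03 ± 0.11 at 24 h (edgeR, adjusted p = 9.87e-11) on the log2 scale. SDC1, a heparan sulfate carrier of epithelial cells, had 31.5 and 30.4 CPM with anti-M8nAb at 12 h, against 79.3 and 77.7 CPM with IgG, with log2 fold changes of −1.34 ± 0.08 at 12 h (edgeR, adjusted p = 2.88e-18) and −0.82 ± 0.08 at 24 h (edgeR, adjusted p = 3.23e-12). GPC4, another carrier, held at the membrane by a lipid anchor, had 700 and 701 CPM with anti-M8nAb at 24 h, against 406 and 397 CPM with IgG, and rose by 0.40 ± 0.05 at 12 h and by 0.80 ± 0.05 at 24 h. EXT1, which polymerizes the chains, rose by 0.53 ± 0.08 at 12 h and by 0.80 ± 0.08 at 24 h. FLRT3, a membrane protein that binds FGF receptors, rose by 1.13 ± 0.36 at 12 h (edgeR, adjusted p = 0.0136) and by 0.87 ± 0.32 at 24 h (edgeR, adjusted p = 0.0272), with 0.829 to 2.87 CPM per library. Its 12 h call was lost without either IgG library (edgeR, adjusted p = 0.0881 and 0.0512) or replicate 2 of anti-M8nAb (edgeR, adjusted p = 0.177), and its 24 h call without either IgG library (edgeR, adjusted p = 0.122 and 0.0781) or replicate 1 of anti-M8nAb (edgeR, adjusted p = 0.159).

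All 27 adaptor and RAS-ERK genes passed the filter, of which 5 rose and 9 fell at 12 h, and 7 rose and 4 fell at 24 h, against 1 and 9 at 12 h and 3 and 7 at 24 h on the log2(FPKM + 1) scale, where the 24 h balance turned. The list had 51.9% of its genes called at 12 h, beside 32.2% of all genes, and 40.7% at 24 h, beside 42.5% of all genes, which is near the background. MAPK3, which encodes the kinase ERK1, had 37.0 and 33.9 CPM with anti-M8nAb at 12 h, against 22.9 and 24.6 CPM with IgG, and rose by 0.58 ± 0.10 at 12 h (edgeR, adjusted p = 8.47e-06) and by 0.61 ± 0.10 at 24 h (edgeR, adjusted p = 2.03e-06). HRAS gave −0.32 ± 0.09 at 12 h and −0.41 ± 0.09 at 24 h, the 12 h call being lost without replicate 2 of IgG at 12 h (−0.26, edgeR, adjusted p = 0.0825). GAB2, a docking protein below the receptors, had 3.78 and 2.70 CPM with anti-M8nAb at 12 h, against 11.3 and 10.3 CPM with IgG (−1.74 ± 0.18, edgeR, adjusted p = 1.37e-10), and overlapped at 24 h, with 13.7 and 13.2 CPM with anti-M8nAb against 17.8 and 13.4 CPM with IgG (−0.21 ± 0.14, edgeR, adjusted p = 0.241). ARAF gave 0.25 ± 0.08 at 12 h (edgeR, adjusted p = 0.0138) and 0.21 ± 0.08 at 24 h (edgeR, adjusted p = 0.0272), its 12 h call being lost without replicate 1 of IgG (edgeR, adjusted p = 0.197) or replicate 2 of anti-M8nAb (edgeR, adjusted p = 0.1) and its 24 h call without replicate 1 of IgG (edgeR, adjusted p = 0.278) or of anti-M8nAb (edgeR, adjusted p = 0.227). The number of calls in this list at 12 h was 6 without either IgG library of 12 h, 9 without replicate 1 of anti-M8nAb at 12 h and 7 without its replicate 2.

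Of 20 targets and feedback genes of FGF-ERK signalling, 19 passed the filter, of which 6 rose and 5 fell at 12 h, and 7 rose and 7 fell at 24 h, against 5 and 5 at 12 h and 7 and 7 at 24 h on the log2(FPKM + 1) scale. That is 57.9% of the list at 12 h, beside 32.2% of all genes, and 73.7% at 24 h, beside 42.5% of all genes. At 24 h 4 fell without replicate 1 of IgG at 24 h. EGR1, an immediate early transcription factor, had 48.2 and 58.3 CPM with anti-M8nAb at 24 h, against 7.59 and 6.92 CPM with IgG, a log2 fold change of 2.88 ± 0.12 (edgeR, adjusted p = 1.6e-23). At 12 h it had 11.3 and 9.36 CPM with anti-M8nAb, against 7.47 and 7.45 CPM with IgG (0.47 ± 0.14, edgeR, adjusted p = 0.00872), a call lost without either IgG library of 12 h (edgeR, adjusted p = 0.0558 and 0.0502) or replicate 1 of anti-M8nAb (edgeR, adjusted p = 0.169). IER3, an early response gene, rose by 0.68 ± 0.08 at 12 h and by 1.24 ± 0.08 at 24 h, though 38.89% of its exons overlap genes on the other strand. PHLDA1 rose by 0.78 ± 0.06 at 12 h and by 0.77 ± 0.06 at 24 h. PHLDA1 is an early response gene too, and 9.35% of its exons overlap a gene on the other strand. SPRED3 had 1.36 and 1.41 CPM with anti-M8nAb at 24 h, against 4.97 and 5.77 CPM with IgG, with log2 fold changes of −1.44 ± 0.22 at 12 h (edgeR, adjusted p = 7.08e-07) and −1.95 ± 0.24 at 24 h (edgeR, adjusted p = 9.47e-09). Between the IgG libraries 12 of these 19 rose and 1 (ETV1) fell at 24 h over 12 h, beside 7.01% of all genes higher and 6.64% lower.

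**Figure D5:**
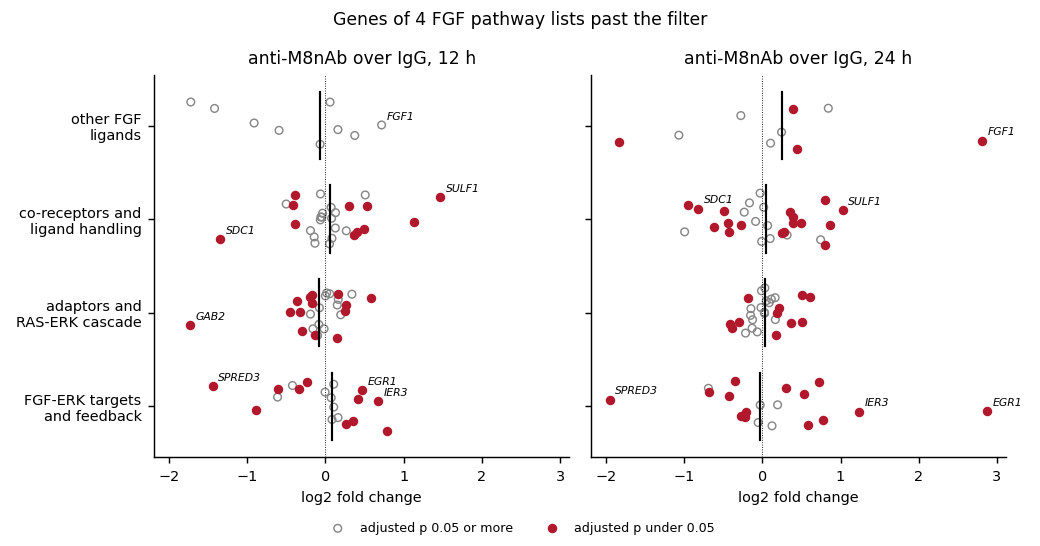
Log2 fold change of anti-M8nAb over IgG at 12 h (left) and 24 h (right) for the genes past the filter in 4 pathway lists, each gene a point and each list's median a black bar, the list of other FGF ligands including intracellular FGFs. Filled points passed an adjusted p of 0.05, and vertical scatter within a list has no meaning. EGR1 lies at 0.47 at 12 h and at 2.88 at 24 h, and the 4 list medians lie between −0.08 and 0.25.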

How the data were processed

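RNA from BG01 cells was sequenced as 8 libraries. The authors, per the labels and methods, trimmed reads (Trimmomatic; FastQC 0.11.9), aligned them to GRCh38.p14 with STAR, removed duplicates with Picard and counted genes with HTSeq, and the deposited counts are whole numbers that were not normalized. The authors also deposited FPKM, made with RNAnorm, which divides by library size and by exon length. Removal of duplicates caps counts of abundant short genes, and the strand setting is not given in the sources used here.

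Each table held 4 further columns, matched to no sample and not used. The 1005 lines with no gene name in the count table, 53.3% to 54.1% of all counts, stayed out of library sizes and tests. Counts of 21010400 to 21792716 per library were fitted over all groups with edgeR 4.0.16 (TMM, quasi-likelihood test, Benjamini-Hochberg adjustment over 20165 genes past filterByExpr) in R 4.3.3. The fit was also run on counts simulated from its own means and spread, which cannot show how well that spread describes these libraries. CPM uses TMM library sizes, and FPKM does not. The TMM factors were 0.966 to 0.979 in anti-M8nAb libraries and 1.01 to 1.043 in IgG libraries. Their part in the differences between the count and FPKM results was not tested. Alternatives were DESeq2 1.42.0 and its size factors, other filters, the 2 groups alone, limma 3.58.1 on log2(FPKM + 1) and log2(FPKM + 0.1) for genes with a mean of at least 0.5 FPKM, a replicate block and leaving out each library.

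The members and lists were chosen with earlier results of these data known. Named from each list were up to 4 genes called at both times in 1 direction with the largest mean log2 fold change, plus up to 2 with the smallest adjusted p, and a gene that this rule named is not reported here. The 3 genes nearest to FGFRL1, to FGFR2 and to FGF8 were taken among protein-coding genes averaging 1 CPM or more, and 6 promoter motifs were searched. Promoters came from RefSeq (GRCh38.p14), and gene positions and symbols from a GENCODE annotation of GRCh38. The window of 250 kb around FGFRL1 and FGF19 was chosen after values were seen. The comparisons share libraries, so their values are not independent. A floor of 3 counts covers counting error only.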

Additional observations from a re-analysis of the deposited data

Results flagged for a closer look

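The response at 24 h minus the response at 12 h, each anti-M8nAb over IgG, was tested in edgeR as an interaction of treatment and time, with adjusted p-values over all genes. Among the members it came to −0.26 ± 0.07 (log2 scale, SE) for FGFR1, −0.56 ± 0.09 for FGFR2, −0.24 ± 0.08 for FGF2 and −0.48 ± 0.17 for FGF19. The members were chosen on the values that enter this comparison, so theirs are a description and no p is given. Among the other genes named, it differed for FGF13 (0.34, edgeR, adjusted p = 0.0373), SDC1 (0.52, edgeR, adjusted p = 0.000673), GPC4 (0.40, edgeR, adjusted p = 1.39e-05), GAB2 (1.52, edgeR, adjusted p = 5.7e-06), EGR1 (2.41, edgeR, adjusted p = 3.69e-13) and IER3 (0.57, edgeR, adjusted p = 0.00023). The antibody and IgG libraries of both times enter each of these values.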

How the results depend on the processing

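With 2 libraries per group, calls rest on the spread shared over genes. The anti-M8nAb over IgG comparison called 6496 genes at 12 h and 8566 at 24 h, and leaving out 1 library gave 4241 to 6644 and 6947 to 8816, the lowest at 12 h being without replicate 1 of IgG at 12 h. DESeq2 called 4962 and 6856. IgG at 24 h over IgG at 12 h called 2753 genes, 1416 with no filter on low counts, 766 on log2(FPKM + 1), 683 on log2(FPKM + 0.1) and 928 to 2929 with 1 library left out (928 and 1263 without replicate 2 or 1 of IgG at 12 h, 1519 without replicate 2 of IgG at 24 h). Higher calls made up 51.4% of that comparison and 69.1% on log2(FPKM + 1), and the cause was not tested.

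FGF1 and FGF4 averaged 0.159 and 0.182 FPKM, below the minimum of 0.5 FPKM, so their calls were not tested on the FPKM scales. Of the other FGF genes in the list, 4 were called at 24 h, and 2 among genes with a mean of at least 1 CPM (fewer genes tested). On either FPKM scale 0 of the 4 tested were called (limma, FGF13 adjusted p = 0.054 and 0.0562). With 1 library left out, the calls at 12 h and 24 h were 0 to 0 and 3 to 5 for these, 9 to 11 and 14 to 18 for co-receptors, 6 to 15 and 9 to 10 for the RAS-ERK genes and 8 to 11 and 10 to 14 for the targets.

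The replicate numbers are shared between groups, but same-numbered libraries did not deviate together (correlations of 0.0209 at 12 h and −0.0452 at 24 h over 16714 genes), so the numbers only name samples. With the replicate block 6421, 8496 and 2688 genes were called in the comparisons at 12 h, at 24 h and of IgG. Calls of named genes were lost for FLRT3 with DESeq2 (adjusted p = 0.0564 at 12 h and 0.115 at 24 h), for ARAF on log2(FPKM + 1) (limma, adjusted p = 0.12 and 0.244) and for EGR1 at 12 h on log2(FPKM + 1) (limma, adjusted p = 0.0806). ARAF at 24 h was also lost with DESeq2 (adjusted p = 0.0705) and with the 2 groups alone (edgeR, adjusted p = 0.0576). With no filter on low counts, edgeR lost ARAF (adjusted p = 0.0574 at 12 h and 0.0868 at 24 h), EGR1 at 12 h (0.0521) and FLRT3 at 24 h (0.0515). No value of a member or named gene that was called changed sign. FGF8 and FGF17 are limited by depth.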
